A study of Camellia japonica and Camellia azalea with 81 samples.

Results

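The genes described here were 150 leaf genes whose level was highest in winter in both Camellia japonica and Camellia azalea, evergreen shrubs of the tea family. They were chosen by their measured leaf levels in TPM (the share of a library's transcripts, scaled to a fixed total), so their winter height is the choice itself and is described below without a test. For each gene ID in both species' tables, the mean of log2(TPM + 1) was taken over winter (Dec to Feb), spring (Mar to May), summer (Jun to Aug) and autumn (Sep to Nov). The score in each species was the winter mean minus the highest of the other season means. Of 41952 shared IDs, 14662 had a winter mean of at least 5 TPM in both species, and 3289 of those had winter as the highest season in both. The 150 with the highest smaller score of the species' scores were taken.

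The study followed young leaves through the year. Leaves of each species were sampled in 12 months, with 3 libraries per month. For C. japonica there were also flower buds in 3 groups of 3 libraries, which the labels call FB-1, FB-2 and FB-3. No treatment or genotype beyond the species is given in the labels, nor is the stage or month behind the bud labels. It is also not stated if the libraries of a group are from different plants, and p-values therefore reflect only how far these samples spread, in part perhaps for technical reasons.

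Evergreen leaves pass through the cold season alive and attached. In temperate plants, falling temperature and shortening days start cold acclimation, in which transcription factors of the CBF family and other regulators switch on genes for dehydrins, sugar synthesis, membrane lipid changes and photoprotection. Such genes are typically low in warm months. The IDs in the files are not paired with gene names, so which of the 150 genes belong to this response cannot be said, and the tissue labels could not be set against marker genes.

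Several libraries stood apart in these 150 genes, and most counts of called genes that rest on them are given with and without them. The month counts and month medians of C. japonica are given only without Feb leaf 1, and with the low Jan libraries. The counts of bud means are given only without FB-1 1. The C. japonica library labelled Feb leaf 1 lay within 1 log2 unit of the mean of FB-1 2 and FB-1 3 for 131 of the 150 genes, and within 1 log2 unit of the mean of Feb leaf 2 and Feb leaf 3 for 52. Across genes with a mean of at least 1 on the log2(TPM + 1) scale it correlated best with FB-1 2 (r = 0.902), and it was left out of the choice of genes and of the C. japonica leaf tests. The library labelled FB-1 1 lay within 1 log2 unit of the Dec leaf mean for 132 genes and of the other FB-1 libraries for 47, and correlated best with Dec leaf 3 (r = 0.968). In C. japonica, Jan leaf 2 and Jan leaf 3 were both below the other 6 winter libraries for 75 genes, and correlated best with Mar leaf 2 (r = 0.975) and Aug leaf 2 (r = 0.923). In C. azalea, Jan leaf 1 was below both other Jan libraries for 140 genes and correlated best with Apr leaf 1 (r = 0.944). What these libraries hold cannot be settled from the labels. Sequencing depth is unknown, because TPM keep none. The 10 most abundant IDs of a library held 40.4% of TPM in the C. azalea library Dec leaf 3, against 16.02% and 13.6% in the other Dec libraries of that species. Other C. azalea libraries of the tests below with a large share were Sep leaf 1, at 34.7% against 13.1% and 8.57%, May leaf 1, at 22.5% against 11.3% and 9.83%, and Mar leaf 1 and Mar leaf 3, at 20.6% and 21.6% against 9.25%. A few genes that take a larger share lower every other TPM value in the same library.

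The 150 genes differed widely in abundance and in how far winter stood above the rest of the year. Each library is a whole organ sample, so fewer cells of a type and less RNA per cell cannot be told apart. The winter mean level had a median of 35.9 TPM over the genes in C. japonica, with a range of 5.48 to 5141, and of 26.5 TPM in C. azalea, with a range of 5.12 to 4248. In summer the median over the genes was 8.42 TPM (C. japonica) and 5.80 TPM (C. azalea). In 15 genes the summer mean was under 1 TPM in C. japonica, in 13 it was so in C. azalea, and in 7 in both. The winter minus summer difference had a median of 1.78 on the log2(TPM + 1) scale in C. japonica, with 1.82 in C. azalea. The score ran from 0.52 to 3.38 in C. japonica (median 0.86) and from 0.53 to 3.25 in C. azalea (median 0.88). A smaller score of at least 1 was reached by 35 genes and one of at least 2 by 5 genes, so for most of the 150 genes winter stood less than 1 log2 unit above the next season.

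The limit of 150 genes marked no break in the scores. The last genes inside it, EVM0015839 and EVM0011198, had smaller scores of 0.519 and 0.517. The first IDs outside it, EVM0029734 and EVM0010398, had 0.516 and 0.514.

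The gene with the highest smaller score was EVM0032500. In C. japonica winter leaves it ranged from 0.617 TPM in Jan leaf 3 to 568 TPM in Dec leaf 3, with a median of 236 and a mean of 252 ± 215 (SD, n = 8). Its summer level there was 0.952 ± 0.713 TPM (SD, n = 9), with a highest value of 2.23. All winter libraries but Jan leaf 3 therefore lay above every summer library. In C. azalea it ran from 23.2 to 303 TPM in winter, with a median of 128 (mean 132 ± 106, SD, n = 9), and from 0.484 to 5.05 TPM in summer, with a median of 1.77, so the winter and summer libraries did not overlap. Its scores were 3.16 and 2.35.

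EVM0022316 came second. It stood at 22.2 ± 17.7 TPM in C. japonica winter leaves (SD, n = 8; lowest 0.869, median 23.1, highest 47.8) and at 89.0 ± 70.8 TPM in C. azalea (SD, n = 9; lowest 22.4, median 77.5, highest 204). Outside winter it reached at most 7.999 TPM in C. japonica, while in C. azalea the most was 20.7 TPM. Every C. azalea winter library thus lay above every other leaf library of that species, and of the 150 genes this was the only one for which that held. None of the 150 genes showed it in C. japonica. The choice of genes used this contrast, and shares over all genes are not given, so nothing is read from these counts.

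A few genes carried much of the summed level. The most abundant, EVM0035052, was at 5141 ± 2816 TPM in C. japonica winter leaves (SD, n = 8; lowest 998, median 6033, highest 8328) and at 278 ± 248 TPM in summer (SD, n = 9; lowest 84.1, median 267, highest 879). In C. azalea its winter mean was 4248 ± 3302 TPM (SD, n = 9; lowest 1192, median 3282, highest 9222) and its summer mean 141 ± 85.1 TPM (SD, n = 9; lowest 45.6, median 138, highest 298). The winter and summer libraries of this gene did not overlap in either species. EVM0018271 came second when genes were ranked by the smaller of their winter means in the species, although it was second in neither species alone. It had winter means of 1632 ± 799 TPM in C. japonica (SD, n = 8) and 837 ± 553 TPM in C. azalea (SD, n = 9), against summer means of 186 ± 118 and 112 ± 67.6 TPM (SD, n = 9 each). Its lowest winter library held 333 TPM in C. japonica, above the highest summer library at 308 TPM, and in C. azalea these values were 283 and 228 TPM. The 2 most abundant genes of each species held 30.9% of the winter sum in C. japonica against 32.5% in C. azalea, and for the 10 most abundant these shares were 65.4% and 62.5%.

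**Figure D1:**
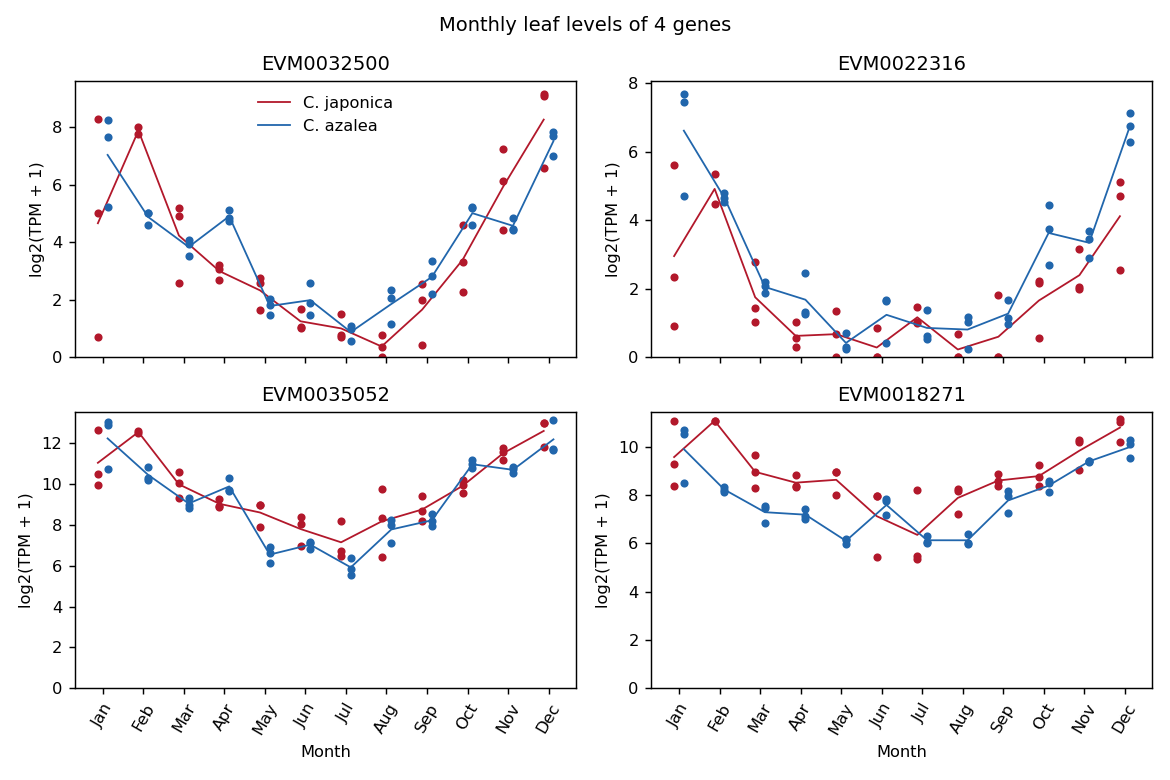
Level of EVM0032500, EVM0022316, EVM0035052 and EVM0018271 as log2(TPM + 1) by month, with 1 point per leaf library and lines through the month means of C. japonica (red) and C. azalea (blue); the library labelled Feb leaf 1 of C. japonica is left out. EVM0032500 and EVM0022316 come down to the foot of the scale in summer, while EVM0035052 and EVM0018271 keep summer means of 278 and 186 TPM in C. japonica and the Jan libraries spread widely in both species.

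Winter and summer libraries overlapped for most of the 150 genes. Every winter library lay above every summer library for 25 of the 150 genes in C. japonica; in C. azalea this held for 61. Over all genes tested the shares were 1.85% and 0.793%, but the choice of genes used this contrast and nothing is read from the difference.

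The seasons next to winter came second for most of these genes. Autumn was the next highest season for 83 genes in C. japonica against 111 in C. azalea, spring for 62 and 38, and summer for 5 and 1. The same season came next in both species for 69 genes. The month with the highest mean was Feb for 88 genes in C. japonica, Dec for 51 and Jan for 7. The Feb mean there rests on Feb leaf 2 and Feb leaf 3 alone, and the Jan mean includes the low Jan leaf 2 and Jan leaf 3. Counts with Feb leaf 1 put back are not given. In C. azalea the highest month was Jan for 97 genes, Dec for 36 and Feb for 11 in the TPM as deposited, where the order of Dec and Jan turns with the scaling. The remaining genes had their highest month outside winter, with 2 in Nov, 1 in May and 1 in Jul in C. japonica, and 3 in Nov, 2 in Jun and 1 in Oct in C. azalea. A total of 26 genes had the same highest month in both species.

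The month medians traced the year from winter to summer and back. Relative to each gene's winter mean, the median over the 150 genes in C. japonica was 0.22 on the log2(TPM + 1) scale in Dec, -0.45 in Jan, 0.40 in Feb, -0.93 in Mar, -1.50 in May, -1.89 in Aug, -1.57 in Sep and -0.66 in Nov. The largest step between neighbouring months there was from Feb to Mar. These C. japonica values leave out Feb leaf 1, whose own median was -0.85, against 0.48 and 0.33 in Feb leaf 2 and Feb leaf 3. The Jan libraries of C. japonica had medians of 0.45, -0.72 and -1.05. Whether Feb leads, and which step is largest, was not examined with Feb leaf 1 put back. In C. azalea the month median was -0.06 in Dec, 0.39 in Jan, -0.35 in Feb, -1.03 in Mar, -1.66 in May, -1.97 in Jun, -1.40 in Sep and -0.68 in Nov. The lowest month median thus fell in Aug in C. japonica and in Jun in C. azalea, although the Jun, Jul and Aug medians lay close together in each species.

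**Figure D2:**
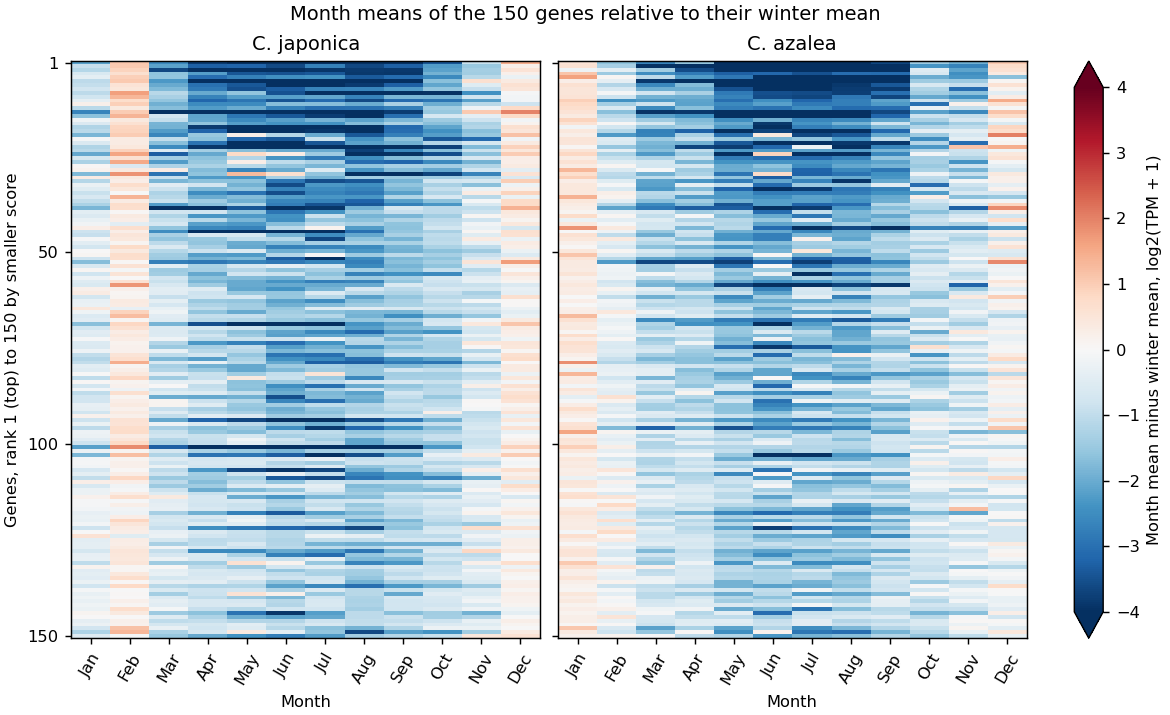
Month means of each of the 150 genes (rows, ranked by the smaller score) minus the gene's winter mean on the log2(TPM + 1) scale, for C. japonica (left, without Feb leaf 1) and C. azalea (right); red is above the winter mean and blue below it. The strongest blue runs from May to Sep at the top of both panels, and the reddest winter column is Feb in C. japonica and, in the TPM as deposited, Jan in C. azalea, where the order of Jan and Dec turned with the scaling.

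The summed level of the 150 genes, in which a few abundant genes dominate, was taken in each library. In C. japonica the sum was 14822, 38180 and 34681 TPM in the Dec libraries, 31227, 8386 and 6720 TPM in the Jan libraries, and 28975 and 27141 TPM in Feb leaf 2 and Feb leaf 3. It stood between 2726 and 4947 TPM in the 9 summer libraries and between 11516 and 14211 TPM in Nov. Jan leaf 2 and Jan leaf 3 therefore lay below every Nov library, and the library labelled Feb leaf 1, at 7909 TPM, did too. In C. azalea the sum was 17175, 23718 and 14544 TPM in Dec, 8089, 29632 and 29310 TPM in Jan, and 8003, 10390 and 9886 TPM in Feb. The summer libraries of C. azalea held between 1401 and 2957 TPM, and its Oct libraries, between 7646 and 9244 TPM, overlapped with Feb.

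**Figure D3:**
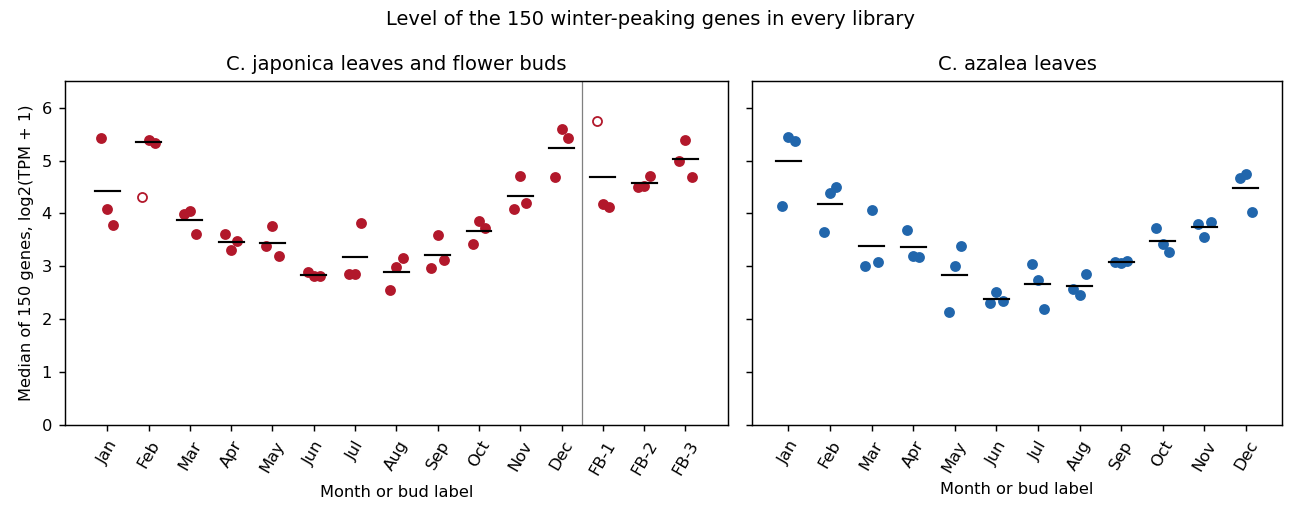
Median over the 150 genes of log2(TPM + 1) in every library, by month or bud label, with a bar at each group mean; open circles are the C. japonica libraries labelled Feb leaf 1 (left out of its bar) and FB-1 1. Jan libraries of C. japonica lie between 3.79 and 5.42 and those of C. azalea between 4.15 and 5.44.

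Whether the 3 winter months differed was tested next, a question the choice of genes did not use, since it took only the winter mean. A gene was called when limma's moderated F test, Benjamini-Hochberg adjusted over all genes of the fit, gave a p below 0.05 and the month means spanned at least 1 log2 unit. In C. azalea 52 of the 150 genes were called, or 34.7%, against 29.7% of all genes tested. The highest month was Jan for 26 of the 52, Dec for 23 and Feb for 3. Among all 8174 genes called in that fit Feb led in 46.3%, Jan in 44.1% and Dec in 9.60%.

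EVM0033990 had the widest range. It stood at 101, 96.3 and 50.7 TPM in the Dec libraries of C. azalea, at 10.7, 39.999 and 24.7 TPM in Jan, and at 3.60, 3.84 and 2.18 TPM in Feb. The 3 months did not overlap, and their means spanned 4.28 on the log2 scale (adjusted p = 8.6e-10, limma). EVM0007824 had 42.9, 68.1 and 44.03 TPM in Dec, 5.35, 24.3 and 31.9 TPM in Jan, and 1.65, 1.49 and 2.33 TPM in Feb, again with no overlap, and a span of 4.20 (adjusted p = 5.6e-09, limma). In C. japonica the Dec libraries of EVM0033990 held 19.8, 269 and 274 TPM and those of EVM0007824 25.7, 21.1 and 24.4 TPM. The Jan and Feb values of C. japonica are not given, and the F test called neither gene there. Both C. azalea p-values come from the fit with Jan leaf 1, and values without it are not given.

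The order of Dec and Jan in C. azalea turned with the scaling. The median Jan minus Dec difference of the 150 genes was 0.43 as deposited and -0.30 after median-of-ratios scaling, where the median of all genes was 0.66 and 0.06. With that scaling 70 of the 150 genes were called, 54 of them highest in Dec, 15 in Jan and 1 in Feb. Over all genes 5840, or 21.6%, were then called, 2228 of them highest in Dec, 1391 in Jan and 2221 in Feb. Without Jan leaf 1 of C. azalea, 81 of the 150 genes were called, 68 of them highest in Jan. The share of all genes called in that fit is not given, so the rise is not read as particular to the 150 genes. Feb was below Dec at the median in both scalings, by -0.31 as deposited and -0.89 scaled, against 0.56 and 0.08 over all genes.

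In C. japonica the same F test called 0 of the 150 genes, against 0.00696% of all genes tested. An unadjusted p under 0.05 was reached by 40 of the 150 genes, against 6.05% of all genes. The median Jan minus Dec difference was -0.67 and the median Feb minus Dec difference 0.21. Leaving out Jan leaf 1, the Jan library with a high level, gave 15 called genes, and leaving out Dec leaf 1 gave 1. Shares over all genes are not given for these fits either. With Jan leaf 2 and Jan leaf 3 left out instead, 0 were called and 9 had an unadjusted p under 0.05.

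The way into winter was tested within autumn, as Nov minus Sep, a difference the choice of genes did not use either. The Sep and Nov libraries did enter the autumn mean. A gene chosen for a winter peak is also likely to be higher in Nov than in Sep if its level changes gradually. More calls than over all genes are therefore no independent support for the winter peak. In C. azalea 37 of the 150 genes were higher in Nov and 1 was lower (limma, at an adjusted p below 0.05 where the months differed by at least 1 log2 unit). The background was 4.36% of all genes tested for higher and 0.651% for lower. In every test here the background includes genes of lower level, which needed only 1 TPM in 3 libraries. It is not matched to the 150 genes, whose winter means were at least 5 TPM in both species. The median difference was 0.73 over the 150 genes and 0.36 over all genes. It was positive for 126 of the 150 genes and for 77.1% of all genes.

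EVM0033005 rose most in C. azalea. It stood at 18.6, 6.43 and 8.04 TPM in the Sep libraries and at 167, 257 and 314 TPM in Nov, with no overlap. The difference was 4.45 ± 0.58 on the log2 scale (SE, adjusted p = 4.7e-06, limma). EVM0013425 had 0.661, 28.3 and 2.85 TPM in Sep and 99.3, 55.3 and 82.7 TPM in Nov. Its Sep libraries were spread, but all were below the Nov libraries (difference 3.77 ± 0.67, SE, adjusted p = 0.00043, limma). The gene that fell, EVM0026928, went from 5.46, 5.63 and 4.86 TPM in Sep to 1.09, 0.791 and 1.64 TPM in Nov, without overlap (-1.56 ± 0.36, SE, adjusted p = 0.0068, limma). It then stood at 71.1, 97.4 and 62.2 TPM in Dec, so its low Nov level came directly before its highest month.

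Scaling and single libraries moved this count. After median-of-ratios scaling 23 genes were higher and 3 lower, the median difference was 0.31 against 0.01 over all genes, and the split of all called genes went from 1199 higher and 179 lower to 663 and 540. The total of 38 became 19 without Sep leaf 1, 24 without Sep leaf 2, 23 without Nov leaf 1, 25 without Nov leaf 2 and 17 without Nov leaf 3. Here and below, shares over all genes are not given for fits with a library left out, apart from those without FB-1 1. Such changes are therefore not read as particular to the 150 genes.

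In C. japonica Nov minus Sep gave 0 called genes among the 150 by limma and 61 at an unadjusted p under 0.05, a level passed by 6.79% of all genes. Over all genes 0.00348% were called higher and 0% lower. The median difference of the 150 genes was 0.94, against 0.16 over all genes. It was positive for 138 of the 150, and for 67.1% of all genes. EVM0033005 had 1.45, 2.09 and 0 TPM in Sep and 127, 166 and 7.51 TPM in Nov, a difference of 4.85 ± 1.05 (SE, adjusted p = 0.17, limma). The libraries of the months did not overlap, but the spread within Nov was wide. Leaving out Nov leaf 3 of C. japonica gave 1 called gene.

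**Figure D4:**
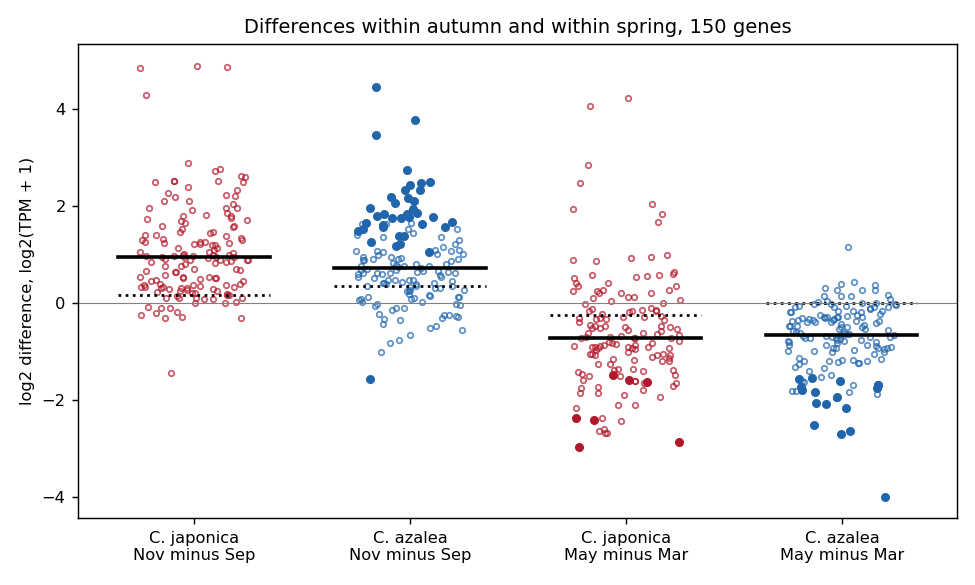
Log2 difference of each of the 150 genes for Nov minus Sep and for May minus Mar in C. japonica (red) and C. azalea (blue); filled points passed the limma threshold, the solid bar is the median of the 150 genes and the dotted bar the median of all genes tested. Medians of the 150 genes are 0.94 and 0.73 for Nov minus Sep and -0.71 and -0.65 for May minus Mar.

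The way out of winter was tested within spring, as May minus Mar, with the same limit as within autumn. In C. azalea 17 of the 150 genes were lower in May and 0 higher (limma), against a background of 0.989% lower and 0.451% higher. At an unadjusted p under 0.05 there were 58 genes, against 11.9% of all genes. The median difference was -0.65 over the 150 genes and 0.01 over all genes.

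EVM0033005 fell most here as well, from 36.8, 43.4 and 56.7 TPM in Mar to 1.34, 1.41 and 3.26 TPM in May in C. azalea (-3.99 ± 0.58, SE, adjusted p = 0.00035, limma). EVM0030747 went from 207, 121 and 498 TPM to 47.8, 23.6 and 37.0005 TPM (-2.71 ± 0.51, SE, adjusted p = 0.0037, limma). Neither gene had overlapping libraries. In C. japonica EVM0030747 stood at 218, 242 and 21.3 TPM in Mar and at 18.9, 17.9 and 11.2 TPM in May, a difference of -2.67 ± 0.86 (SE, adjusted p = 0.10, limma). After scaling the C. azalea count was 33 genes, all lower, while the calls over all genes went from 124 higher and 272 lower to 393 and 573. As deposited, it came to 7 without Mar leaf 2, 11 without May leaf 1 and 9 without May leaf 2.

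In C. japonica 7 of the 150 genes were lower in May than in Mar and 0 higher (limma), against 1.16% and 0.358% of all genes. At an unadjusted p under 0.05 there were 56, against 17.8% of all genes. The median was -0.71, with -0.24 over all genes. EVM0012134 had 10.4, 15.4 and 84.0 TPM in Mar and 1.60, 2.40 and 2.74 TPM in May (-2.97 ± 0.70, SE, adjusted p = 0.030, limma). EVM0008974 had 73.2, 59.7 and 17.8 TPM in Mar and 4.94, 7.71 and 3.22 TPM in May (-2.87 ± 0.74, SE, adjusted p = 0.043, limma). In both genes every Mar library was above every May library.

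These C. japonica calls depended on the processing. The count was 4 with no filter on low values and 3 after scaling, where the split of all called genes went from 103 higher and 332 lower to 168 and 187. It was 0 with the library labelled Feb leaf 1 put back, 0 without Mar leaf 2, May leaf 1 or May leaf 2, 1 without Mar leaf 1 and 3 without May leaf 3. Of the 17 genes called in C. azalea, 2 were also called in C. japonica, or 11.8% of the C. azalea and 28.6% of the C. japonica calls. The same overlap over all called genes is not given, so nothing is read from these shares. The genes called in both species were EVM0012134 and EVM0007500, the latter named here after its values were seen. In C. azalea EVM0012134 had 24.9, 28.96 and 27.9 TPM in Mar and 5.05, 6.75 and 7.57 TPM in May, without overlap (-1.93 ± 0.37, SE, adjusted p = 0.0044, limma).

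Tested directly between the species, these within-season differences were called for few of the 150 genes. For Nov minus Sep, the C. japonica difference minus the C. azalea difference was called lower for 1 gene and higher for 0 (limma interaction contrast), against 0.372% and 0.0192% of all genes, and 16 genes had an unadjusted p under 0.05 (7.14% of all genes). The gene was EVM0032117. In C. azalea it stood at 8.32, 17.6 and 25.5 TPM in Sep and at 194, 198 and 155 TPM in Nov. In C. japonica it had 39.6, 29.5 and 22.6 TPM in Sep and 47.5, 72.1 and 68.9 TPM in Nov. The months did not overlap in either species, with log2 differences of 3.46 in C. azalea and 1.03 in C. japonica, and the difference between them was -2.43 ± 0.58 (SE, adjusted p = 0.037, limma). No gene was called with a pseudocount of 0.1. The call was also lost when Sep leaf 1, Sep leaf 2, Nov leaf 1, Nov leaf 2 or Nov leaf 3 of C. japonica was left out, and when Sep leaf 1, Sep leaf 2, Nov leaf 1 or Nov leaf 2 of C. azalea was. Scaling moved the split of all called genes from 6 higher and 116 lower to 20 and 64.

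For May minus Mar the species difference was called higher for 1 of the 150 genes and lower for 0 (limma), against 0.192% and 0.321% of all genes, and 25 genes had an unadjusted p under 0.05 (10.7% of all genes). EVM0031289 stood at 5.74, 2.18 and 8.03 TPM in Mar and at 140, 120 and 51.5 TPM in May in C. japonica. In C. azalea it had 35.6, 37.3 and 23.1 TPM in Mar and 11.2, 5.14 and 8.88 TPM in May. The gene was thus higher in May in C. japonica and higher in Mar in C. azalea, with no overlap in either (log2 differences of 4.06 and -1.84; difference between species 5.90 ± 1.32, SE, adjusted p = 0.018, limma). The call was lost with the library labelled Feb leaf 1 put back, and without Mar leaf 2, May leaf 1 or May leaf 2 of C. japonica or Mar leaf 1 or May leaf 2 of C. azalea. Without May leaf 3 of C. japonica, 2 genes were called. Scaling gave 5 genes and moved the split of all called genes from 60 higher and 100 lower to 188 and 184.

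Flower buds were not used in choosing the genes. Bud values were set beside the leaf levels of the same species without the library labelled FB-1 1. The mean bud level lay above the C. japonica winter leaf mean for 44 of the 150 genes in FB-1, 45 in FB-2 and 76 in FB-3. It lay below the summer leaf mean for 36, 19 and 12 genes. The choice of genes used these leaf means, and shares over all genes are not given, so nothing is read from these counts. The highest of the bud means was that of FB-3 for 101 genes, of FB-2 for 30 and of FB-1 for 19, and 82 genes had the order FB-1, FB-2, FB-3 from low to high. Over all genes of the bud fit the highest mean was in FB-3 for 31.3%, in FB-2 for 20.4% and in FB-1 for 48.2%, and 20.9% had that order. The summed level was 7965 and 7684 TPM in FB-1 2 and FB-1 3, between 13961 and 18293 TPM in FB-2, and between 22796 and 27813 TPM in FB-3. FB-1 1 held 37365 TPM, above all other bud libraries.

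**Figure D5:**
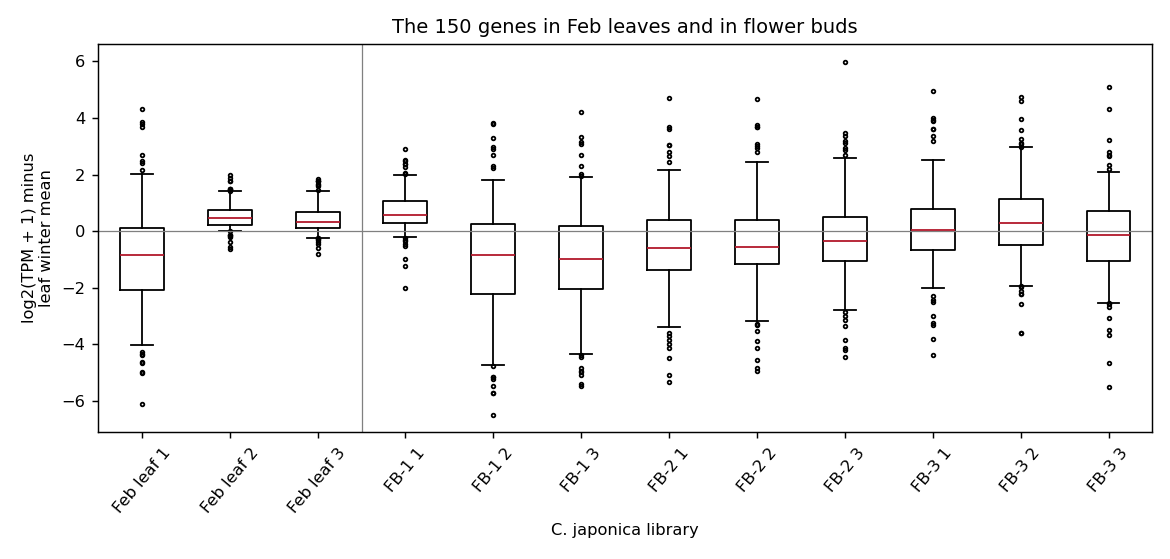
For each C. japonica library of Feb leaves and flower buds, the distribution over the 150 genes of log2(TPM + 1) minus the gene's winter leaf mean; boxes span the quartiles, the red line is the median and whiskers run from the 5th to the 95th percentile. The library labelled Feb leaf 1 has a median of -0.85 and resembles FB-1 2 (-0.86), while FB-1 1 has 0.57 and a narrow box like those of Feb leaf 2 and Feb leaf 3.

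FB-2 minus FB-1 and FB-3 minus FB-1 share the FB-1 libraries, and their counts turned on the library labelled FB-1 1. With all 9 bud libraries, FB-3 minus FB-1 called 2 of the 150 genes higher, or 1.33%, and 0 lower (limma). Over all genes 1.39% were called higher and 0.626% lower. The count called higher was thus near the share over all genes. An unadjusted p under 0.05 was reached by 29 of the 150 and by 19.5% of all genes. EVM0014004 stood at 25.3, 35.6 and 30.4 TPM in FB-1 and at 241, 119 and 515 TPM in FB-3 (2.98 ± 0.47, SE, adjusted p = 0.023, limma). EVM0032117 had 83.9, 77.3 and 45.7 TPM in FB-1 and 301, 189 and 223 TPM in FB-3 (1.79 ± 0.30, SE, adjusted p = 0.029, limma). In both genes the labels did not overlap, and FB-1 1 was close to the other FB-1 libraries. The count was 0 without FB-1 2, without FB-1 3 or without FB-3 1.

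Without FB-1 1, FB-3 minus FB-1 called 50 of the 150 genes, 48 higher and 2 lower (limma), against 4.79% and 9.98% of all genes. In this comparison, with 2 libraries left in FB-1, the median difference of the 150 genes was 0.86 and that of all genes -0.22. Every FB-3 library was above FB-1 2 and FB-1 3 for 86 of the 150 genes and below them for 11, where 18% and 33.7% of all genes were so. After scaling as well, 69 genes were higher and 1 lower, the median was 1.13 against 0.03, and the split of all called genes went from 1397 higher and 2909 lower to 2047 and 2286.

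EVM0011624 and EVM0032500 rose most in that comparison. EVM0011624 stood at 0.524 and 0 TPM in FB-1 2 and FB-1 3 and at 51.9, 57.3 and 53.1 TPM in FB-3 (5.48 ± 0.53, SE, adjusted p = 0.0018, limma). EVM0032500, the gene with the highest smaller score in leaves, had 1.16 and 2.57 TPM in FB-1 2 and FB-1 3 and 147, 174 and 57.6 TPM in FB-3 (5.37 ± 0.56, SE, adjusted p = 0.0023, limma). FB-1 1 held 30.9 TPM of EVM0011624, below FB-3, and 589 TPM of EVM0032500, above FB-3, and with that library the differences were 3.91 and 2.79 (adjusted p = 0.12 and 0.44, limma). The genes that fell were EVM0022296, from 16.9 and 9.49 TPM to 5.17, 5.70 and 4.69 TPM (-1.15 ± 0.29, SE, adjusted p = 0.036, limma), and EVM0008157, from 108 and 77.5 TPM to 31.6, 35.4 and 18.9 TPM (-1.68 ± 0.34, SE, adjusted p = 0.018, limma). Neither overlapped with FB-1 2 and FB-1 3.

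For FB-2 minus FB-1 limma called 0 of the 150 genes with all libraries, with 10 at an unadjusted p under 0.05 (7.22% of all genes), against 0.609% higher and 0.0136% lower over all genes. Without FB-1 1 it called 4 higher and 1 lower, against 0.947% and 0.765%. EVM0013425, among the genes that rose within autumn in C. azalea, had 1.11 and 2.85 TPM in FB-1 2 and FB-1 3 and 23.9, 19.8 and 28.1 TPM in FB-2 (3.12 ± 0.38, SE, adjusted p = 0.012, limma). EVM0002684 had 43.2 and 47.8 TPM in those FB-1 libraries and 373, 347 and 379 TPM in FB-2 (2.98 ± 0.15, SE, adjusted p = 7.2e-05, limma). The groups did not overlap for either. EVM0007780 fell from 96.5 and 124 TPM to 41.3, 49.1 and 50.8 TPM (-1.20 ± 0.20, SE, adjusted p = 0.035, limma).

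FB-3 minus FB-2 takes no FB-1 level, but its error was pooled over all 9 bud libraries, FB-1 1 among them. It called 0 of the 150 genes and 0% of all genes in both directions (limma). An unadjusted p under 0.05 was reached by 21 of the 150 and by 10.2% of all genes. The median difference of the 150 genes was 0.46, against -0.11 over all genes, and it was positive for 112 of the 150 and for 42.9% of all genes. EVM0032500 stood at 15.4, 12.1 and 32.6 TPM in FB-2, below every FB-3 library, with a difference of 2.57 ± 1.84 (SE, adjusted p = 0.65, limma). With FB-1 1 left out of the fit the SE of the same difference was 0.50 (adjusted p = 0.056, limma).

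That fit without FB-1 1 called 9 of the 150 genes higher in FB-3 than in FB-2 and 0 lower (limma), against 0.333% and 0.971% of all genes. EVM0011624 had 2.74, 3.83 and 12.7 TPM in FB-2, below its FB-3 libraries (3.13 ± 0.48, SE, adjusted p = 0.037, limma). EVM0010324 stood at 94.8, 118 and 193 TPM in FB-2 and at 675, 799 and 481 TPM in FB-3, without overlap (2.29 ± 0.31, SE, adjusted p = 0.029, limma).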

How the data were processed

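The study sequenced RNA of 36 leaf libraries for each species, with 9 bud libraries for C. japonica. The authors deposited TPM, with a separate table for each species. HISAT2 2.1.0 and StringTie 1.3.6 are the tools named, per the submitters' processing notes. The genome build is not given in the sources used here, nor is the annotation. The tables were normalized separately, so levels were not compared across species. TPM keep no depth, so no counting interval is given.

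Season means were computed in Python 3.11.15 with pandas 2.3.3 and numpy 2.4.6. Tests used limma 3.58.1 in R 4.3.3 on log2(TPM + 1), with limma's trend of variance on mean. A gene entered a fit if 3 or more of its libraries reached 1 TPM, which all 150 genes did in each fit. Tests were two-sided and Benjamini-Hochberg adjusted over all genes of the fit. A call needed an adjusted p below 0.05 together with a change of 1 log2 unit or more. This scale understates the change of low genes. C. japonica leaf fits used 35 libraries (without Feb leaf 1), C. azalea fits 36, species fits 71 and bud fits 9. Simulated data were used to test the fits for winter months, Nov minus Sep, FB-3 minus FB-1, FB-3 minus FB-2 and the species differences. FB-2 minus FB-1, May minus Mar within a species, and the refits with further libraries left out were not tested so. Replicate numbers of C. japonica follow deposit order and only name a library.

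The members and lists were chosen with earlier results of these data known. IDs were named by rule: the 2 highest by smaller score, the 2 by smaller winter mean, those next to the limit, and per comparison up to 2 called genes in each direction with the largest difference, at least 5 TPM in the higher group and no overlap of libraries. For the species differences the last condition could not be applied, and for winter months the widest spans were taken. Pathway and marker symbols matched 0 IDs and were not tested.

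Alternatives were a pseudocount of 0.1, no filter, median-of-ratios scaling, each library left out, a replicate block in C. azalea, and Feb leaf 1 of C. japonica put back. Leaving out several January libraries, joining the loss of FB-1 1 or of a January library with scaling, and leaving FB-1 1 out of the fit for FB-3 minus FB-2, were chosen after seeing the data.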

Additional observations from a re-analysis of the deposited data

Results flagged for a closer look

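Among 40 groups of libraries examined for a library far from the rest, 1 stood out: Jul leaf 3 in the C. japonica summer leaves. The median of the 150 genes there was 3.83 on the log2(TPM + 1) scale, against 2.56 to 3.15 in the other 8 summer libraries. Chance alone flags about 1 in 20 such groups.

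Differences between the species under the same contrast were called by a direct test for 1 of the 150 genes (0.667%) in each of the contrasts. Over all genes, 0.372% were called lower for Nov minus Sep and 0.192% higher for May minus Mar. Counts this small are not read as particular to the 150 genes. EVM0032117 had a Nov minus Sep difference that was lower in C. japonica than in C. azalea by -2.43 on the log2 scale (adjusted p = 0.037, limma). EVM0031289 had a May minus Mar difference that was higher in C. japonica by 5.90 (adjusted p = 0.018, limma), with opposite directions in the species. Both calls were lost when single libraries were left out.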

How the results depend on the processing

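Of the 150 genes, 140 were also taken with a pseudocount of 0.1, 114 with a winter minimum of 10 TPM, 133 after median-of-ratios scaling, 122 with Feb leaf 1 of C. japonica put back, 146 with means of month means, 116 with the low Jan libraries left out together, and 124 to 144 when single winter libraries were left out. Numbers of called genes moved by over 1.5 times in these cases, and the cause was not tested. Scaling gave 33 for C. azalea May minus Mar (17 as deposited), 3 for C. japonica May minus Mar (7) and 5 for the species difference of May minus Mar (1). With no filter C. japonica May minus Mar gave 4, and with Feb leaf 1 put back it and the species difference of May minus Mar gave 0. A pseudocount of 0.1 gave 0 for the species difference of Nov minus Sep. Scaling joined to a left-out library gave 85 for C. azalea winter without Jan leaf 1, 9 for FB-2 minus FB-1 and 70 for FB-3 minus FB-1 without FB-1 1. Leaving out 1 library at a time gave 42 to 81 for C. azalea winter, 17 to 36 for its Nov minus Sep and 7 to 17 for its May minus Mar, 0 to 15, 0 to 1 and 0 to 7 for the same in C. japonica, 0 to 5 for FB-2 minus FB-1, 0 to 50 for FB-3 minus FB-1, 0 to 1 for the species difference of Nov minus Sep and 0 to 2 for that of May minus Mar. FB-3 minus FB-2 stayed at 0 in every alternative run but that with FB-1 1 left out of the fit, which gave 9. Apart from the fits without FB-1 1, shares over all genes are not given for fits with a library left out. No named gene changed direction. A replicate block in C. azalea gave 51, 34 and 16 called genes for winter, Nov minus Sep and May minus Mar. Same-numbered libraries of C. azalea had deviations that correlated between -0.64 and 0.56 over 198 pairs (median -0.01, 39 over 0.1). The median for libraries with different numbers was 0.008. Whether the numbers pair the libraries cannot be settled from these correlations. TPM keep no depth, so the precision of low values is unknown, and groups of 2 or 3 libraries limit every test.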
